A study of Mus musculus with 55 samples.

Results

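Of 97113 regions of open chromatin in mouse bone marrow-derived macrophages (BMDM), 6821 lay in long terminal repeat (LTR) retroelements. They were taken from the deposited annotation of each region, as those whose detailed annotation named a repeat of class LTR. For comparison, 4225 regions lay in SINE elements and 3697 in LINE elements, and 60401 lay in introns or intergenic sequence outside any named repeat, called distal non-repeat regions here. By family, 4183 of the LTR regions (61.3%) were ERVL-MaLR, 1302 (19.1%) ERVK, 889 ERVL and 394 ERV1, and 53 belonged to other LTR families. The regions were set by ATAC-seq peaks of another study, of macrophages without treatment or with the TLR4 ligand Kdo2-lipid A (KLA), so neither ChIP readout described here chose them.

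All cells were BMDM of C57BL/6 mice, grown in L-cell conditioned medium as a source of M-CSF and kept overnight in low serum before treatment. They received vehicle (PBS), the milk oligosaccharide 3'-sialyllactose (3'SL, 100 µg/ml), lipopolysaccharide (LPS, 10 ng/ml), or both agents together, and were taken 2 h or 6 h later. Acetylated lysine 27 of histone H3 (H3K27ac) was counted in 1000 bp around each region centre and the acetyltransferase p300 in 200 bp. Each treated group had 2 libraries, and vehicle had 2 for H3K27ac at 2 h. The other vehicle groups (H3K27ac at 6 h, p300 at 2 h and 6 h) had 1 each, from replicate 2.

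LTR retroelements are remnants of retroviral insertions, and most copies in the genome are solitary LTRs without the internal genes. An LTR carries the promoter and enhancer that once drove the element, so a copy in open chromatin can hold ready binding sequences for host transcription factors. Copies of 1 element descend from a common source sequence and resemble each other, so regions of the same element are not independent of each other. In macrophages, PU.1 sets up much of the open chromatin together with AP-1 and C/EBP factors, NF-kB is activated by LPS, and interferon-stimulated factors bind the ISRE.

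Each of 10 macrophage marker genes had an open promoter region, with mean H3K27ac of 96.8 to 577 normalised tags (median 435). Of 6 B cell markers 1 had an open promoter region, at 2.94, of 6 neutrophil markers 2 had one, at 3.14 and 30.5, and T cell, fibroblast and epithelial markers had 0. Since ATAC peaks of other macrophages set the regions, a marker without a region could not be read, and other cell types could go unseen. Libraries held 4200716 to 39597624 tags for H3K27ac and 3199270 to 18130439 for p300. For p300 the replicates stood apart: 6.12% to 9.42% of tags lay in the windows of all regions in replicate 1 and 20.1% to 27.5% in replicate 2, against 4.77% in the input. Normalised tags are the authors' tags per 10000000, rescaled between libraries by the tags in the tested regions with TMM factors.

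The DNA under the LTR regions was read first, since shared letters are what sets one element apart from another. A set of 5 motifs were searched on both strands of the 200 bp around each region centre: AGGAAGT for PU.1, TGANTCA for AP-1, TTGCNNAA for C/EBP, GGG and TTTCC with 2 bases of any kind between them for NF-kB, and GAAA and GAAA with 2 bases between them for ISRE. The 5 were searched apart, so copies of different motifs may overlap. A match is a description of the letters and not a bound site. The regions printed here were chosen as the region with the highest ATAC score that holds the motif in its element, or because H3K27ac rose there with LPS. Capitals mark the motif letters, on either strand, and the letters were read from the RefSeq copy of the mm10 genome, plus strand.

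For PU.1 letters in the ORR1 group, the first is an ORR1B1 copy at chr9:113928682-113928881, at -2153 bp from the start of Ubp1 (a minus sign means upstream), and the second an ORR1E copy at chr9:116384311-116384510, intergenic, with Gm4668 the nearest gene. The third, at chr3:135672497-135672696, is an ORR1C2 copy in intron 1 of 24 of Nfkb1.
ORR1B1 near Ubp1: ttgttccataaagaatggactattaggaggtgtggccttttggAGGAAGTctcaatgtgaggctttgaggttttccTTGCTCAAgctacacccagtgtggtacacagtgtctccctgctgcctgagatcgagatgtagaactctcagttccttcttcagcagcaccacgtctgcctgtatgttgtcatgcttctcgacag
ORR1E near Gm4668: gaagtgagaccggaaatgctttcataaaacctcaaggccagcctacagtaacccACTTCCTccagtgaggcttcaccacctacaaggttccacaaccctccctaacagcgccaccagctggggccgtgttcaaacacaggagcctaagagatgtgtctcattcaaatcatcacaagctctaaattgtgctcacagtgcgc
ORR1C2 in Nfkb1: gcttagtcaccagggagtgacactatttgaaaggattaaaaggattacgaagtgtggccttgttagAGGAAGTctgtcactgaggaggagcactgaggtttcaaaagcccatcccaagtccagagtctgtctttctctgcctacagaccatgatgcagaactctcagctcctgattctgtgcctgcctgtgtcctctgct

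For the MT group, an MTC copy at chr10:50690425-50690624 in intron 14 of 41 of Ascc3 holds 2 copies of the PU.1 letters, 1 on each strand. An intergenic MTA_Mm copy at chr9:94512907-94513106, nearest to 1190002N15Rik, holds NF-kB and C/EBP letters. An MTD copy at chr19:5931646-5931845, at -6929 bp from the start of Cdc42ep2, holds none of the letters and is shown because both marks rose there with LPS.
MTC in Ascc3: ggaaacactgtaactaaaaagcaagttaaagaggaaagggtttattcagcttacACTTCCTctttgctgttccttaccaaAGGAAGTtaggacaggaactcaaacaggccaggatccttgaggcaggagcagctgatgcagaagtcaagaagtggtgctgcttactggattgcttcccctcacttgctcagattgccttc
MTA_Mm near 1190002N15Rik: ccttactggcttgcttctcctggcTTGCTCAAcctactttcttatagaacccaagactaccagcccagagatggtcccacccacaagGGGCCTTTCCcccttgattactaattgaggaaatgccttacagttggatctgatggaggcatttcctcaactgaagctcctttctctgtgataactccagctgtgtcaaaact
MTD near Cdc42ep2: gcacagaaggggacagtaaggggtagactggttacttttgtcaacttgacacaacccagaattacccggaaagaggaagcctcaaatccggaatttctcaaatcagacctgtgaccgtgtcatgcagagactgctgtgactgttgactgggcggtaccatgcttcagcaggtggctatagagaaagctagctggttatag

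Among ERVL elements, an intergenic RMER15 copy at chr7:89445254-89445453, nearest to AI314278, holds AP-1 letters, an RLTR28 copy at chr7:118346539-118346738, nearest to Syt17, holds PU.1 letters and 2 copies of C/EBP letters, and an LTR33 copy at chr7:46724104-46724303, at 8400 bp from the start of Saa4, holds NF-kB letters.
RMER15 near AI314278: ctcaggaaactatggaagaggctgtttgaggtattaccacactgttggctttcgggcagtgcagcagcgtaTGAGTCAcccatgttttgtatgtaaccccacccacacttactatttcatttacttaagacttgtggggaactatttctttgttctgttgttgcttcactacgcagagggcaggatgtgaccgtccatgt
RLTR28 near Syt17: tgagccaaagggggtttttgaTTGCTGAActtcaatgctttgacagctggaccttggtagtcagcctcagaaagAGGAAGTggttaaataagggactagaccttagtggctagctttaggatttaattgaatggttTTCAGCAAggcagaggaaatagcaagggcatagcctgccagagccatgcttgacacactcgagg
LTR33 near Saa4: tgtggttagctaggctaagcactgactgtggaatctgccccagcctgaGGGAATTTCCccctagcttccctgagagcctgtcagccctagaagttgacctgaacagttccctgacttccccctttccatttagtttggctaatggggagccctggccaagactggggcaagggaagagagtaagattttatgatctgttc

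The PU.1 letters were the motif that set LTR regions apart. They were found in 40.6% of LTR regions, against 21.2% of all regions and 22.7% of distal non-repeat regions. The AP-1 letters were in 20.3% of LTR regions and 17.2% of all, the C/EBP letters in 10.3% of each, the NF-kB letters in 2.02% and 1.76%, and the ISRE letters in 2.99% and 3.25%. ERVL-MaLR regions held the PU.1 letters most often, at 47.5%, followed by ERVK at 30.3%, ERVL at 29.6% and ERV1 at 27.2%. ERV1 regions had the highest share of NF-kB letters (4.82%) and ISRE letters (5.33%) among these 4 families.

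Within families the letters followed the element. Of ORR1 regions 1129 of 1756 (64.3%) held the PU.1 letters, and among single elements the share was 86.6% for ORR1A4 (58 of 67), 81.5% for ORR1B1 (150 of 184), 81.4% for ORR1B2 and 69.9% for ORR1E (370 of 529). In the MT group it ran from 66.7% for MTB_Mm and 53.0% for MTC to 24.5% for MTD, the element with the most open regions (637). The AP-1 letters were concentrated elsewhere, in RMER6A (65.6%), RMER15 (64.7%, 99 of 153) and RMER19B (49.4%). RLTR28 held both PU.1 letters (76.6%) and C/EBP letters (54.7%, 35 of 64), and MTA_Mm held NF-kB letters in 20.0% of its regions (13 of 65). At the other end, 1 of 57 IAP regions held the PU.1 letters (1.75%), while 21 of them (36.8%) held C/EBP letters.

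**Figure D1:**
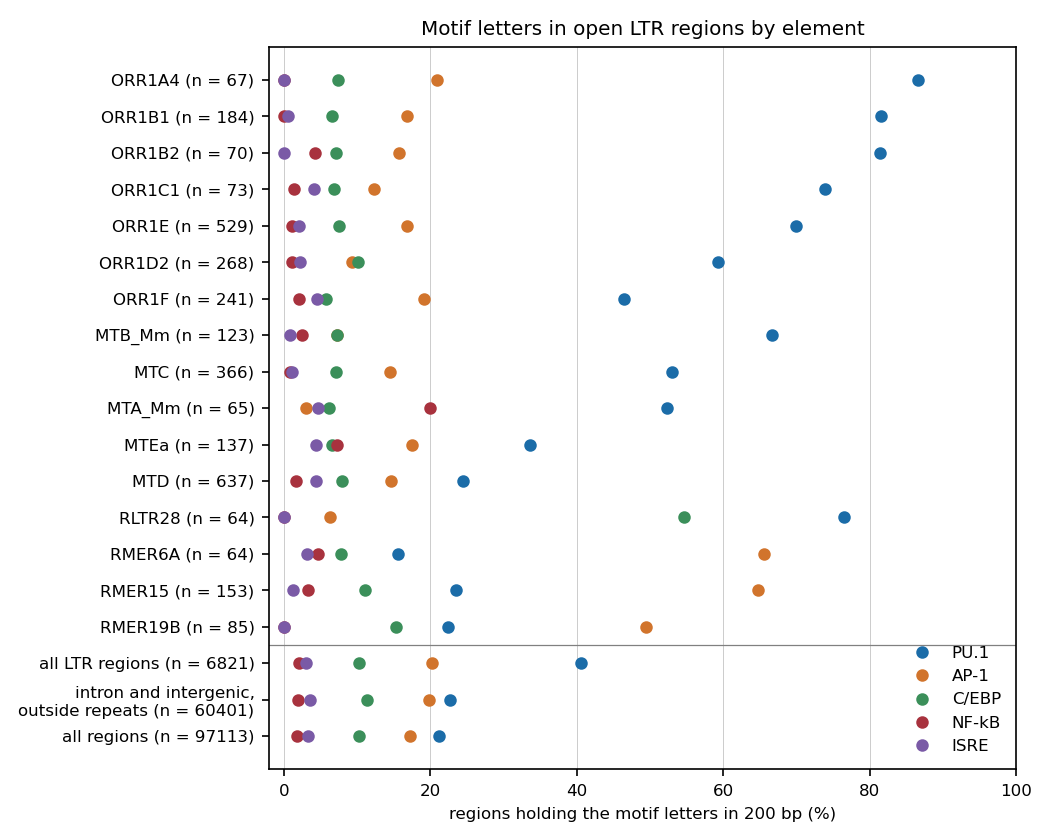
Share of open LTR regions with the motif letters in 200 bp (x axis, percent), 1 row per element with its number of regions, and the whole sets below the line. ORR1 elements reach 86.6% for PU.1 letters against 21.2% in all regions, while RMER15 is high for AP-1 letters at 64.7%.

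The same motif sat in the same flanking letters across copies of an element. Aligned on the motif, the most frequent letter at each flanking position gave one string for 4 ORR1 elements, ORR1A4, ORR1B1, ORR1B2 and ORR1C1, and a related one for ORR1D2. These strings are shown because they let the copies be compared, with the motif in capitals.
ORR1A4, ORR1B1, ORR1B2 and ORR1C1: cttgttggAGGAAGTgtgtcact
ORR1D2: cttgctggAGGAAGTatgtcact
ORR1E: ctgaaaacAGGAAGTggggcacg
MTC: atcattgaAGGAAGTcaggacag
MTB_Mm: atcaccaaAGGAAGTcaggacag
MTA_Mm, PU.1: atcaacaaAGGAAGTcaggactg
MTA_Mm, NF-kB: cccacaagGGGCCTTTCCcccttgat
RLTR28, PU.1: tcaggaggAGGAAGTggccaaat
RLTR28, C/EBP: cctctgccTTGCTAAAaaccatta
RMER15: agcgttggTGACTCAtaaacact
RMER19B: cctcctgcTGAGTCAgcaggagt

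The strength of these strings differed. In 150 ORR1B1 copies the most frequent letter was found in a median of 77.3% of copies per flanking position, in 192 MTC copies in 72.7% and in 49 RLTR28 copies in 83.7%. In 369 ORR1E copies it was only 37.1% and in 97 RMER15 copies 37.1%, so those 2 strings describe few single copies. In RLTR28, 32 regions held both PU.1 and C/EBP letters, and in 16 of them the first bases of the motifs were 63 bp apart. The 13 NF-kB copies of MTA_Mm shared their flanking letters in a median of 84.6%.

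How close the letters lay to the region centre depended on the element. The median distance of the nearest PU.1 copy from the centre was 23.5 bp over LTR regions and 25.5 bp over all regions with those letters. It was 19.5 bp in ORR1E and in ORR1B1, where 90.5% and 88.0% of copies lay within 50 bp, against 78.2% over all regions. For AP-1 letters in RMER15 the median was 18.5 bp against 27.5 bp over all regions, with 89.9% against 76.0% within 50 bp. Other elements had them farther out: PU.1 letters lay at 33.5 bp in RLTR28 and 32.5 bp in MTA_Mm, with 64.7% within 50 bp in the latter, and AP-1 letters at 35.5 bp in RMER6A, with 66.7%. The 10 NF-kB copies of MTEa lay at a median of 51.5 bp, against 33 bp over all regions with those letters.

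**Figure D2:**
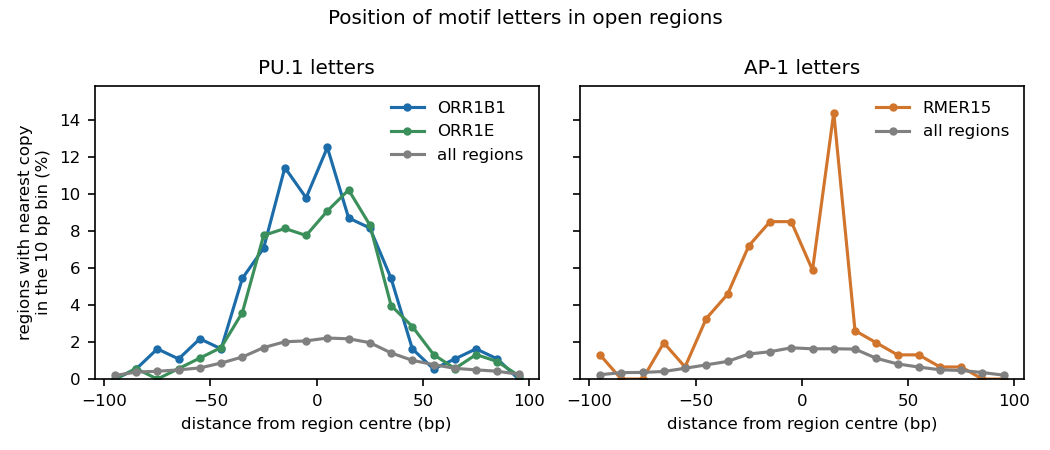
Percent of regions whose nearest motif copy falls in each 10 bp bin (y axis) by distance from the region centre in bp (x axis), 1 line per element and 1 for all regions, for PU.1 and AP-1 letters. The lines of ORR1B1, ORR1E and RMER15 peak near the centre and stand above the line of all regions, as 69.9% of ORR1E and 64.7% of RMER15 regions hold the letters at all.

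Regions with and without the letters differed in other readouts, but not in 1 direction across elements. In ORR1D2, 60.4% of the regions with PU.1 letters overlapped the deposited p300 peak list, against 32.1% without them, in ORR1E 51.1% against 35.8% and in MTC 48.5% against 39.5%. Over LTR regions together this was 48.1% against 38.5% and over all regions 50.7% against 29.7%. AP-1 letters went with 44.4% either way in RMER15 and with less overlap in RMER19B (35.7% against 62.8%), and C/EBP letters in RLTR28 with 28.6% against 34.5%.

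Levels were mixed too. The median H3K27ac with and without PU.1 letters was 10.3 and 5.68 normalised tags in ORR1D2 and 6.24 and 4.49 in ORR1B1, but 6.83 and 8.24 in ORR1E and 10.6 and 13.3 in MTC. For p300 it was 6.42 and 4.02 in ORR1D2, 4.20 and 3.50 in ORR1B1, 4.78 and 5.51 in ORR1E and 6.74 and 6.98 in MTC. Over all LTR regions it was 9.30 and 10.5 for H3K27ac and 5.77 and 6.10 for p300. None of these differences was tested.

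LTR regions lay far from transcription starts and were mostly single. They were intergenic in 58.7% and intronic in 41.3% of cases, the only places where the annotation names repeats. The median distance to the nearest transcription start was 27259 bp, against 22973 bp for distal non-repeat, 31079 bp for LINE and 19234 bp for SINE regions. Another open region lay within 1000 bp of 21.8% of LTR regions, against 30.3% of distal non-repeat regions and 34.9% of all. LINE regions (23.3%) and SINE regions (21.1%) were near the LTR share. The p300 list overlapped 42.4% of LTR regions, 46.3% of LINE, 38.8% of distal non-repeat, 24.8% of SINE and 34.1% of all regions. Of LTR regions and all regions, the SREBP list overlapped 24.6% and 22.2%, the LXR list 21.7% and 22.5%, and the p65 list 1.58% of each. The LXR and SREBP lists came from separate BMDM treated for 18 h with GW3965 (1 µM), which activates LXR, and the list of p65, an NF-kB subunit, from the other study's cells. The p65 list held 41220 peaks, against 44251 in the p300 list, yet it overlapped far fewer regions. Whether its positions match those of the mm10 regions was not tested, so overlaps with the p65 list, here and below, are uncertain.

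H3K27ac over LTR regions was lower than over open chromatin in general, while p300 differed less, and LINE regions were at a like level. The median over regions of the mean H3K27ac was 10.1 normalised tags in LTR regions, 18.0 in all regions and 13.3 in distal non-repeat regions, while the median input was 6.50, 6.50 and 6.66 tags. For p300 the medians were 5.98, 7.37 and 6.88, and the input 1.82, 3.03 and 2.43. Inputs stayed on the authors' scale, so a normalised value beside its input compares unlike scales. LINE regions had medians of 10.5 for H3K27ac and 6.71 for p300, and SINE regions 5.22 and 4.46. ERV1 regions had the highest median of the 4 main families for both marks (14.4 for H3K27ac, 6.76 for p300), and ERVK the lowest for p300 (5.10) and ERVL for H3K27ac (8.86).

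Vehicle cells were at least 2-fold over input (value plus 1, on the authors' scale) for H3K27ac at 2761 LTR regions (40.5%), against 52.2% of all regions, and at least 4-fold at 1835 (26.9%), against 40.9%. The 2-fold share was 40.4% in LINE, 31.4% in SINE and 47.0% in distal non-repeat regions. For p300, 3875 (56.8%) reached 2-fold, against 56.4%, and 2212 (32.4%) reached 4-fold, against 30.8%. Without the regions whose input was above its 99th percentile over all regions (16.3 tags for H3K27ac and 21.8 for p300), 2723 and 3865 reached 2-fold. By these counts the LTR share was below the background for H3K27ac and near it for p300. The p300 vehicle libraries were of replicate 2 and the only p300 input of replicate 1, and the p300 replicates stood apart. In the 2 h p300 vehicle library (3199270 tags) the LTR median was 6.25 on the authors' scale. For p300 the 2-fold line thus rests on few tags.

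Levels varied among elements. Of the 27 elements with at least 50 regions, MLTR14 (median H3K27ac 21.5 normalised tags), RMER6A (16.8) and RMER19B (15.7) were highest. ORR1B1 (6.09) and ORR1A4 (6.37) were lowest, beside inputs of 6.10 and 6.54 on the authors' scale. RMER19B was also highest for p300, with 68.2% of its 85 regions at least 2-fold over input, while RMER6A was lowest, with 40.6%. The IAP group, which holds many recent insertions, had 57 regions with a median of 3.38 for H3K27ac, beside an input of 5.03 on the authors' scale, and 2.11 for p300. Copies of young elements are nearly alike, and how reads that match several copies were placed was not given in the sources used here; its part in these low values was not tested.

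At 2 LTR regions with the highest input, H3K27ac did not exceed it. An RLTR33 copy in intron 1 of 9 of Brox held a mean of 129 tags in the H3K27ac inputs, on the authors' scale, and 27 to 72.4 normalised tags in the H3K27ac libraries. An ORR1A1 copy near Fam171a1 held 26.9 in the H3K27ac inputs and 1.03 to 14.8 in the ChIP libraries.

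Among the LTR regions with the highest levels, some kept their H3K27ac through the treatments and others did not. An MLT1F copy 40445 bp from the start of Ccr1, a chemokine receptor gene, held 783 to 1062 normalised H3K27ac tags in the 15 libraries with a time label, with 880 to 1062 in PBS and 845 to 942 in LPS libraries, which overlap. Its p300 was 296 and 341 in the PBS libraries, both of replicate 2, and 78 to 181 in the LPS libraries of both replicates, with no overlap. An ORR1F copy near Dppa3 held 562 to 857 of H3K27ac, and its p300 overlapped between PBS (284 and 363) and LPS (187 to 321).

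An MLT1L copy at -41362 bp from the start of Runx1, a transcription factor of blood cell development, held 461 and 561 normalised p300 tags in the PBS libraries and 265 to 352 with LPS, with no overlap, while its H3K27ac overlapped, at 360 to 542 and 445 to 571. A MuRRS4-int copy near Lilrb4a, an inhibitory receptor gene, held 233 to 421 of H3K27ac with PBS and 548 to 862 with LPS. An RMER19B copy near Cacul1 held 555 to 743 with PBS and 338 to 542 with LPS. Both marks of an RMER6B copy near Lgals3, which encodes galectin-3, varied between replicates, with H3K27ac at 571 and 139 in the 2 h LPS libraries against 749 and 434 with PBS. These ranges join 2 h and 6 h and are given without a test. For p300 the PBS libraries were all of replicate 2, while the other ranges join both replicates, so replicate and treatment are mixed. With 3'SL alone, p300 ran from 276 to 578 at the Runx1 copy and from 197 to 503 at the Ccr1 copy. These ranges also reach below the PBS values.

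Of all tags that fell in the windows of the 97113 regions, LTR regions took 3.55% to 4.44% in 16 H3K27ac libraries (median 4.10%), below the 5.04% to 6.00% of 3 inputs. For p300 they took 5.24% to 6.04% in 14 libraries (median 5.52%), above the 4.44% of the input. The H3K27ac range includes 1 vehicle library with no time label, which entered no comparison. LINE regions lay likewise, at 2.20% to 2.85% against 2.96% to 3.60% for H3K27ac and 3.54% to 4.16% against 2.58% for p300. SINE regions lay below the inputs for H3K27ac (2.01% to 2.53% against 3.18% to 3.72%) and on both sides of the input for p300. Distal non-repeat regions took 56.0% to 64.3% of p300 tags, against 49.0% in the input, and overlapped the inputs for H3K27ac. The ERVK share of H3K27ac was lower with LPS than with PBS in both replicates at 2 h, 0.646% against 0.689% and 0.596% against 0.699%, and in the single pair at 6 h, 0.655% against 0.690%. At 2 h this was not particular to ERVK. ERVL-MaLR (2.45% against 2.54% and 2.32% against 2.60%), SINE, LINE and distal non-repeat shares were lower in both replicates too. In the 6 h pair those shares were higher with LPS, for example 2.78% against 2.66% in ERVL-MaLR. The ERVL share at 2 h was lower in replicate 2 only. The ERV1 share was higher in replicate 1 (0.347% against 0.280%) and the same in replicate 2 (0.303% against 0.302%). With 2 libraries a group, the smallest p an exact permutation test allows is far above 0.05, so these shares are given as values.

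**Figure D3:**
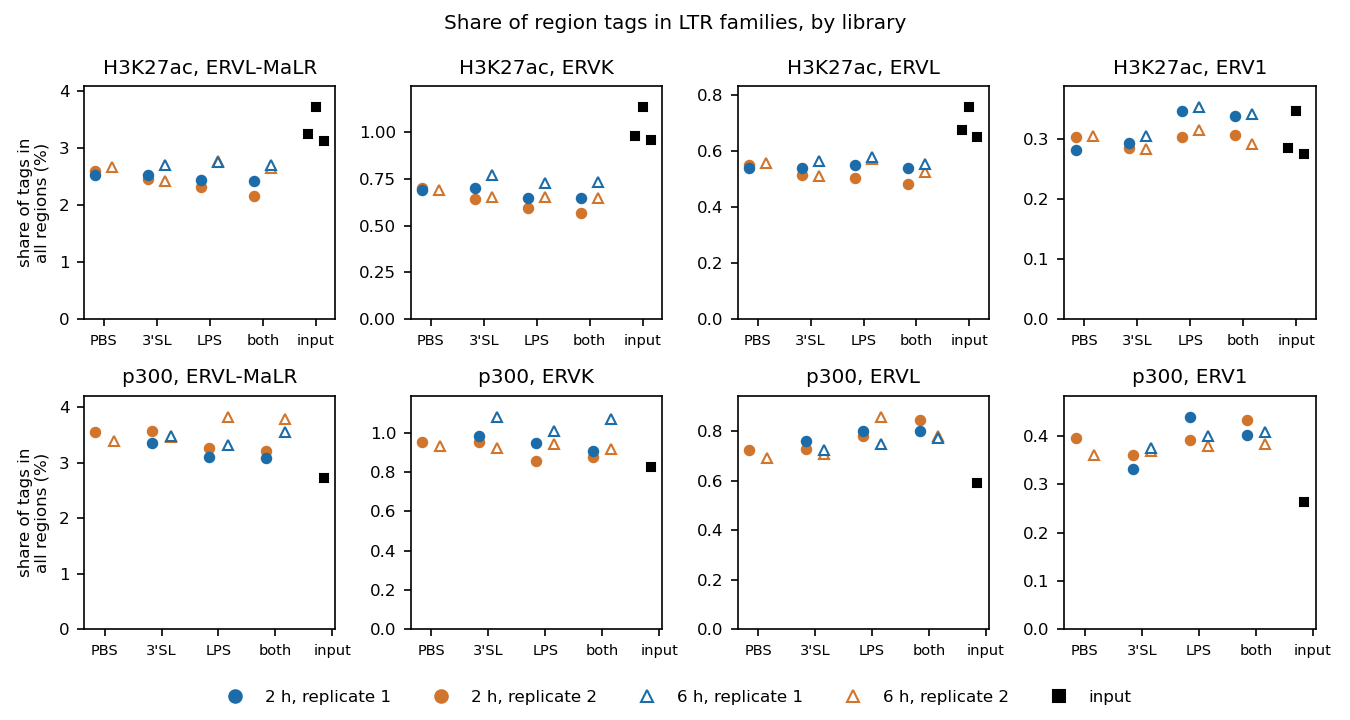
Share of the tags in all regions that fell in regions of each LTR family (y axis, percent, from 0, with its own scale in each panel) by treatment, 1 point per library, with replicate by colour, time by shape and inputs as squares. H3K27ac libraries lie below the inputs for ERVK (0.569% to 0.772% against 0.955% to 1.13%) but not for ERV1 (0.280% to 0.352% against 0.274% to 0.347%), and p300 libraries lie above the input in each family.

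After 2 h of LPS, H3K27ac rose at 88 and fell at 56 of the 5226 LTR regions that passed the filter on low tags (76.6% of the 6821). These are 1.68% and 1.07%, against a background of 1.96% higher and 1.45% lower over the 77387 regions tested (limma, Benjamini-Hochberg adjusted p under 0.05 over all regions). With the replicate as a block, 540 rose and 547 fell (10.3% and 10.5%, against 11.5% and 11.4%). The shares of LTR regions called were near those of open chromatin in general, and more tags in every cell cannot be told apart from more cells that carry the mark. By family the counts higher and lower were 51 and 32 of 3242 ERVL-MaLR, 12 and 10 of 988 ERVK, 16 and 8 of 656 ERVL and 9 and 6 of 304 ERV1. With the block, 62 of the 304 ERV1 regions rose (20.4%) and 29 fell, while 79 ERVK regions rose and 101 fell. Differences between families were not tested. The count of 144 rests on each of the 4 libraries: dropping LPS replicate 1 left 16 calls and dropping LPS replicate 2 left 23, while dropping the first PBS library left 11 and the second left 0. Of the 10 single regions named below for this comparison by size or gene list, 8 to 10 lost their call when 1 of these libraries was dropped, and 0 changed direction.

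Regions named by size of change, here and below, were chosen among called ones whose LPS and PBS libraries of that time did not overlap. Their separation is thus a condition of the choice and no further result. The largest rises joined an almost silent vehicle state to a strong LPS signal. An MT2B2 copy at -74275 bp from the start of 4930529L06Rik (chr16:84605415-84605614, intergenic) held 12.9 and 4.11 normalised tags with PBS and 308 and 161 with LPS. The log2 change was 4.71 (SE 1.14, limma adjusted p = 0.049). With 3'SL alone it held 15.1 and 7.91, near PBS, and with both agents 255 and 88.9. At 6 h it held 12.5 with PBS and 353 and 231 with LPS.

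The MTD copy near Cdc42ep2, an effector of the GTPase Cdc42, whose sequence is printed above, held 4.62 and 3.08 normalised H3K27ac tags with PBS and 105 and 109 with LPS at 2 h. This was a rise of 4.49 (SE 0.64, limma adjusted p = 0.00933), and it is 1 of the regions in both the p65 and the p300 list. With both agents it held 110 and 81.3, in the range of LPS alone, and with 3'SL 6.73 and 3.72. At 6 h LPS gave 104 and 81.3 against 2.67, and both agents gave 65.2 and 42.6, each below each LPS library.

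Another MTD copy, in intron 1 of 17 of Dnm1l, the gene of a mitochondrial fission GTPase (chr16:16346527-16346726), held 0 and 3.08 normalised tags with PBS and 40.6 and 50.9 with LPS at 2 h (log2 change 4.55, SE 1.08, limma adjusted p = 0.0446). At 6 h the LPS libraries were lower, at 14.3 and 26.2 against 5.34. A MER57E1 copy 3930 bp from the start of Il1f10, a gene of the interleukin-1 family (chr2:24295027-24295226), held 1.85 and 1.03 with PBS and 61.6 and 42.9 with LPS at 2 h (4.44, SE 1.07, limma adjusted p = 0.0468). It held 98.5 and 163 with LPS at 6 h against 1.78, a call only with the replicate block (5.41, adjusted p = 0.0211). The vehicle values of Dnm1l and Il1f10 rest on a handful of tags.

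The largest falls went to a few tags. An MTEa copy 486333 bp from the start of Rbfox1, a splicing factor gene (chr16:7556069-7556268), held 29.6 and 40.1 normalised tags with PBS and 2.71 and 3.64 with LPS (log2 change -3.09, SE 0.58, limma adjusted p = 0.0195). It held 4.43 and 5.06 with both agents, and with 3'SL alone 21 and 16.3. At 6 h it held 43.6 with PBS and 6.43 and 2.62 with LPS, a call only with the block (-2.90, adjusted p = 0.0107).

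An ORR1E copy near Dock1, which encodes an exchange factor for Rac (chr7:134555412-134555611), fell from 26.8 and 34.9 to 3.38 and 2.18 (-3.07, SE 0.73, limma adjusted p = 0.0461), and p300 there was 0 in all PBS and LPS libraries. An MTD copy at -1067 bp from the start of Fbxw10, an F-box gene (chr11:62845957-62846156), fell from 37.9 and 53.4 to 7.45 and 2.91 (-2.98, SE 0.66, limma adjusted p = 0.0352). With both agents the values were 8.86 and 13.1 at Dock1 and 8.86 and 3.79 at Fbxw10, below every PBS library in each case.

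**Figure D4:**
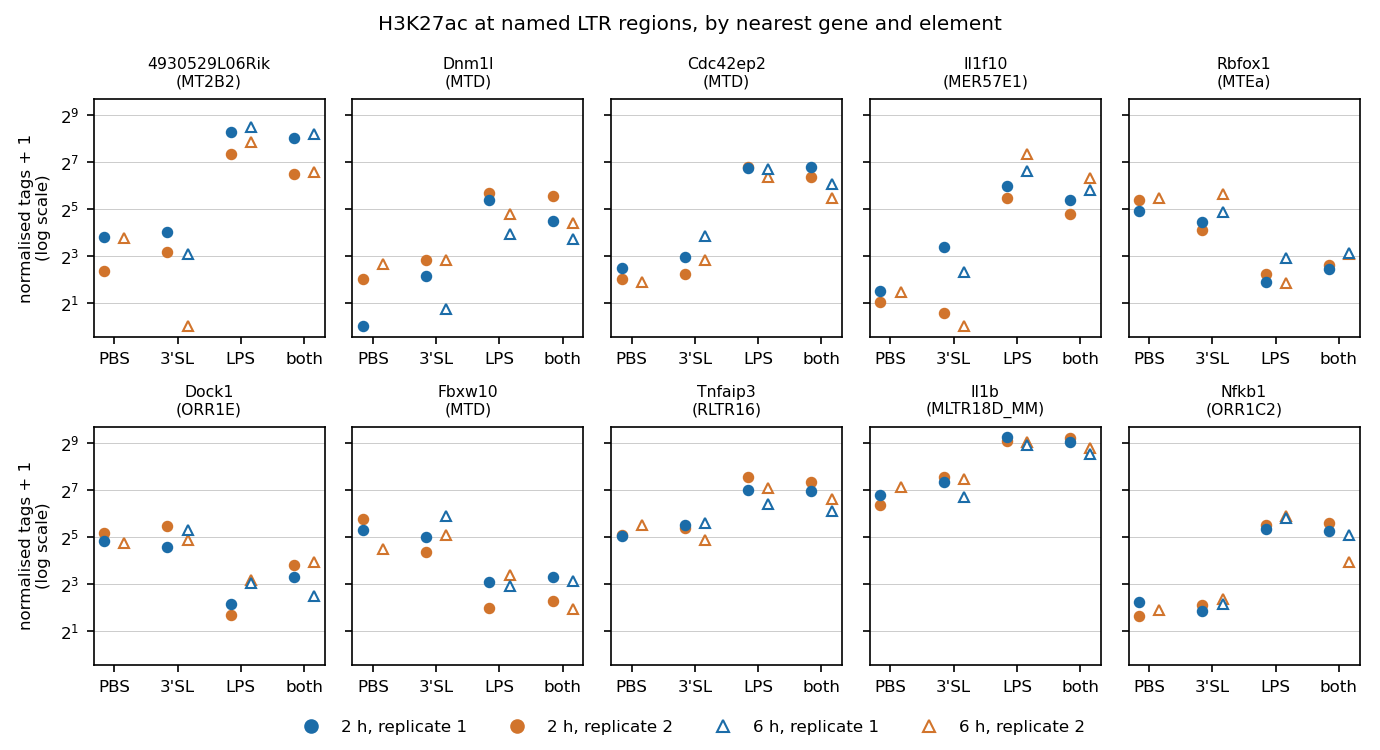
Normalised H3K27ac tags plus 1 (y axis, log2 scale) at LTR regions named by nearest gene and element, for PBS, 3'SL, LPS and both, 1 point per library, with replicate by colour and time by shape. At the regions that rose, every LPS library lies above every PBS and 3'SL library of its time, and at Rbfox1, Dock1 and Fbxw10 every LPS library lies below them. For the regions named by size, the gap between LPS and PBS at 2 h was a condition of the choice.

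Nearest genes gave the LTR regions a place among known LPS response genes, without showing which gene a region acts on. Of 40 NF-kB inflammatory genes, 10 were nearest to an LTR region, with 14 regions in all, of which 11 were tested. H3K27ac was above 0 change at each of the 11 (median 1.74, against 0.01 over all regions tested), and 3 rose and 0 fell at 2 h. With the block 6 rose. The 3 lay near Il1b, Nfkb1 and Tnfaip3.

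At Il1b, which encodes the cytokine IL-1β, an MLTR18D_MM copy at -9287 bp from the start (chr2:129380327-129380526, ERVK) held 107 and 80.2 normalised H3K27ac tags with PBS and 598 and 542 with LPS at 2 h (log2 change 2.60, SE 0.30, limma adjusted p = 0.00546). It held 523 and 587 with both agents, and 161 and 185 with 3'SL alone, above both PBS libraries but not called. At 6 h LPS gave 478 and 526 against 139. This region was in the p65, p300, LXR and SREBP lists.

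The ORR1C2 copy in Nfkb1, the gene of the p105 and p50 NF-kB proteins, held 3.69 and 2.06 with PBS and 39.3 and 43.7 with LPS at 2 h (3.47, SE 0.69, limma adjusted p = 0.0233). At 6 h it held 2.67 with PBS, 54.3 and 57.7 with LPS, and 33.0 and 14.3 with both agents. Near Tnfaip3, whose product A20 limits NF-kB signalling, an RLTR16 copy at -28593 bp from the start (chr10:19043904-19044103) held 31.4 and 32.9 with PBS and 127 and 187 with LPS (2.22, SE 0.43, limma adjusted p = 0.0213). Both agents gave 122 and 160 there, overlapping LPS alone.

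The other gene lists had 0 calls without the block, and with it few, against the 11.5% higher and 11.4% lower over all regions given above. Of 38 interferon response genes 9 had LTR regions, and of 13 tested 0 were called (median 0.59), or 2 higher with the block. Of 22 macrophage identity genes 10 had LTR regions, and of 15 tested 0 were called (median 0.14), or 2 higher with the block. These shares are near the background and too few to describe the lists. Of 20 LXR and lipid genes 4 had them, and of 5 tested 0 were called, or 2 lower with the block. One of these 2, an MLT1D copy 49333 bp from the start of Arl4c, an LXR target gene, was also lower at 6 h with the block: it held 139 with PBS and 77.1 and 42.0 with LPS (-1.88, SE 0.37, adjusted p = 0.00793, against 0.678 without the block).

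LTR regions with NF-kB or ISRE letters were called higher more often than lower with LPS. Of 112 tested LTR regions with NF-kB letters 6 rose at 2 h (5.36%) and 0 fell, with a median log2 change of 1.19. With the block 43 rose (38.4%) and 4 fell. Over all 1443 tested regions with these letters 7.76% rose, or 37.3% with the block, near the LTR share. The NF-kB difference between LTR and other regions was not tested. Of 172 with ISRE letters 6 rose (3.49%) and 0 fell, or 50 (29.1%) and 6 with the block, against 4.83% and 30.0% higher over all 2714 such regions. PU.1 letters, the common ones, went with 24 higher (1.14%) and 26 lower (1.23%) of 2111, against 1.63% and 1.73% over all regions with them. AP-1 letters went with 23 higher (2.09%) and 11 lower (0.999%) of 1101, against 2.11% and 1.93%.

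Of the 56 LTR regions that fell, 34 (60.7%) overlapped the LXR list, 29 (51.8%) the SREBP list and 45 (80.4%) the p300 list. Of the 5226 tested, 27.7%, 30.9% and 52.7% did. Of the 88 that rose, 27 (30.7%), 32 (36.4%) and 52 (59.1%) did. Without the block, 2.34% of tested LTR regions in the LXR list fell and 1.86% rose, against 3.05% and 2.31% of all tested regions in it. For the SREBP list it was 1.80% and 1.98%, against 2.79% and 2.42%. For the p300 list it was 1.63% and 1.89%, against 2.5% and 2.47%. With the block, 289 of the 1450 tested LTR regions in the LXR list fell (19.9%) and 159 rose (11.0%), and over all 21554 tested regions in that list 20.3% fell and 12.0% rose. For the SREBP list 18.5% of LTR regions fell and 10.0% rose, against 19.2% and 12.0%. The difference between the lists was not tested. The peaks of the LXR and SREBP lists were called in other cells, and the p300 list names no sample.

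**Figure D5:**
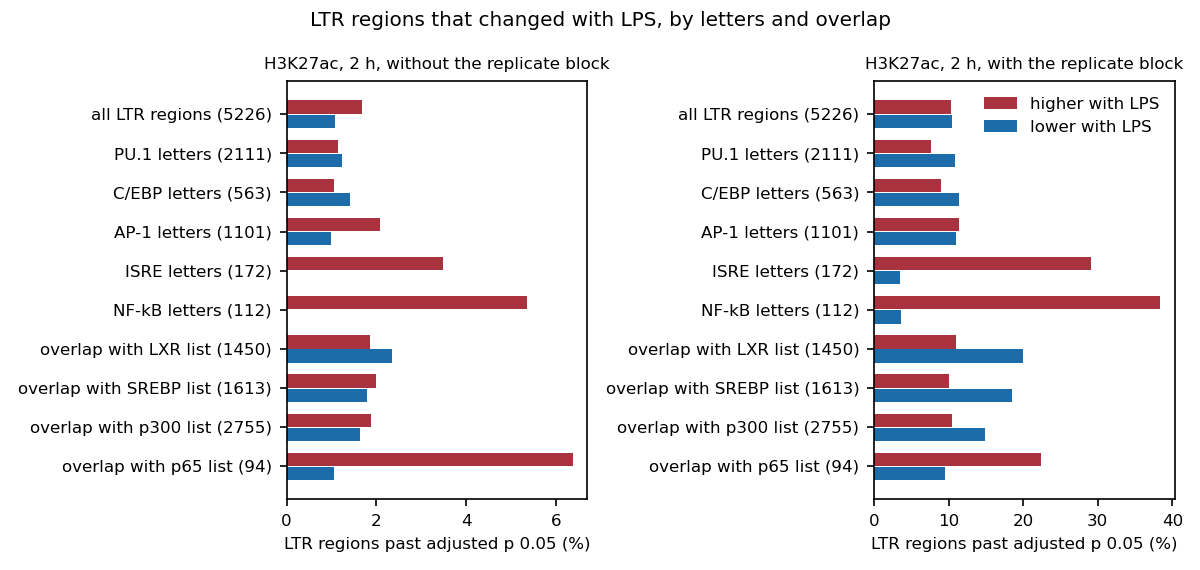
Percent of tested LTR regions (x axis) in which H3K27ac was higher (red) or lower (blue) with LPS than with PBS at 2 h, by motif letters and by overlap with peak lists, with the number tested in brackets, without and with the replicate block. Regions with NF-kB letters (38.4% higher with the block) and ISRE letters (29.1%) lean to the higher side. With the block, those in the LXR (19.9% lower), SREBP (18.5%) and p300 (15.0%) lists lean to the lower side.

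The MTA_Mm copy near 1190002N15Rik, printed above for its NF-kB letters, held 21.2 and 27.7 normalised H3K27ac tags with PBS and 123 and 108 with LPS at 2 h (log2 change 2.20, SE 0.47, limma adjusted p = 0.0298). With 3'SL it held 21.9 and 22.3 and with both a mean of 111 ± 18.1 (SD, n = 2), so the libraries with LPS lay above those without it, with and without 3'SL. At the copies shown for PU.1 and AP-1 letters the mark did not pass the test at 2 h: the Ubp1 copy held 46.2 and 83.2 with PBS and 56.2 and 126 with LPS (limma adjusted p = 0.853), and the AI314278 copy 16.6 and 15.4 against 8.80 and 16 (limma adjusted p = 0.742). The Syt17 copy of RLTR28 stayed at 0 to 8.91 in all libraries, with an input of 8.88.

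Summed over all copies, 252 elements of all repeat classes with at least 10 regions were tested, of which 121 were LTR elements. At 2 h of LPS, 1 LTR element rose and 1 fell in H3K27ac, against 0.794% of the 252 higher and 1.19% lower. RLTR23, an ERV1 element with 14 regions, held 469 and 584 normalised tags with PBS and 947 and 1210 with LPS (log2 change 1.03, SE 0.23, limma adjusted p = 0.0416), and with both agents 929 and 1109. MLTR25A, an ERVK element with 14 regions, held 1576 and 1681 with PBS and 881 and 576 with LPS (-1.18, SE 0.22, limma adjusted p = 0.0141), and 877 and 692 with both. Of the 13 tested MLTR25A regions 3 lay above 0. The PBS and LPS libraries did not overlap in either element.

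With the replicate block 16 LTR elements rose and 17 fell at 2 h, against 12.3% and 13.9% of all elements. The largest rises were RMER13B (1.76), RMER6D (1.28), MT2B2 (1.17) and RLTR23 (1.03). In RMER13B 1 region held 75.2% of the tags and in MT2B2 1 held 56.3%, so these sums describe single copies. MTE2a rose by 0.70 (adjusted p = 0.00118) more evenly, with 46 of 74 tested regions above 0, from 3027 and 4208 to 5822 and 5784 tags. The largest falls were MLTR25A (-1.17), RMER19C (-0.98), RMER20B (-0.83) and ORR1A2 (-0.73, with 82.6% of its tags in 1 region). A set of 3 RMER19 elements was among those that fell: besides RMER19C, RMER19B by 0.55 (adjusted p = 0.0162), with 24 of 73 tested regions lower and 3 higher, and RMER19A by 0.52 (adjusted p = 0.0219). RMER19B held 4345 and 4430 tags with PBS and 3531 and 2462 with LPS.

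The 10 elements with the most open regions changed little as sums at 2 h: MTD by 0.33 (limma adjusted p = 0.206) and ORR1D2 by -0.32 (0.351) were at the ends, and ORR1E (-0.20), MTC (-0.06), ORR1F (0.04), ORR1B1 (-0.16), RMER15 (0.21), MTEa (-0.21), MTB_Mm (0.05) and MTE2b (-0.08) lay between, with 0 past the threshold. ORR1D2 passed with the block (adjusted p = 0.0343). Single copies within them still moved both ways: in MTD 19 rose and 8 fell of 513, in ORR1E 3 and 3 of 378, in MTC 3 and 4 of 303 and in MTEa 0 and 4 of 106. Over all regions tested 1.96% rose and 1.45% fell, so most of these counts are near or below the background.

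At 6 h of LPS, against the lone PBS library, 0 LTR regions passed for H3K27ac (background 0.00129% higher and 0% lower), although 11.5% had an unadjusted p under 0.05, against 10.6% of all tested, and edgeR called 3. With the replicate block 148 rose and 187 fell (2.83% and 3.58%, against 2.70% and 3.55%), in ERVK 16 and 39. Regions at 6 h are therefore named from the fit with the block, and the vehicle library is assumed to vary like the other groups.

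The LTR33 copy near Saa4, a gene of the serum amyloid A family, held 0 normalised tags with PBS and 35 and 117 with LPS at 6 h, at least 28.4-fold higher over a floor of 3 tags (limma with block, adjusted p = 0.0165). At 2 h it held 0.924 and 0 with PBS and 19 and 56.8 with LPS. With both agents it held 27.6 and 33.1 at 6 h. LPS libraries were above vehicle at each time, and replicate 2 was the higher.

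An MLTR14 copy at -1097 bp from the start of Zfp811, a zinc finger gene (chr17:32810929-32811128), held 3.56 normalised tags with PBS and 70.7 and 302 with LPS at 6 h (6.06, limma with block, adjusted p = 0.00333). An RMER6C copy in intron 4 of 6 of Ms4a6d, a membrane protein gene of macrophages (chr19:11591833-11592032), held 0 and then 57.1 and 52.5, at least 20.5-fold higher (adjusted p = 0.0453), and 52.9 and 18.3 with both agents. Falls at 6 h were found near Hrh1, the histamine H1 receptor gene, where an MTD copy held 108 with PBS and 12.1 and 2.62 with LPS (-3.70, SE 0.59, adjusted p = 0.00238), and near Cacul1, where an ORR1C2 copy held 27.6 and then 1.43 and 0 (-3.77, adjusted p = 0.0364). The Cacul1 copy held 5.54 and 12.3 in the PBS libraries at 2 h, so its 6 h vehicle value is the highest of its 3. A MERVL_2A-int copy near Nrg2 fell from 43.6 to 3.57 and 0 (-4.53, adjusted p = 0.00767).

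As sums at 6 h, 0 LTR elements passed without the block (0% of the 252 in either direction). With it 1 rose, RMER13B (1.91, adjusted p = 0.047), and 1 fell, IAPLTR3-int (-1.44, adjusted p = 0.00349), against 1.98% and 1.19%. IAPLTR3-int held 2109 tags with PBS and 592 and 677 with LPS at 6 h, and at 2 h 983 and 1891 with PBS and 908 and 1003 with LPS. Its PBS libraries thus ranged widely, and replicate 1 at 2 h overlapped LPS.

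For p300, 4038 LTR regions (59.2%) were tested and 0 passed at 2 h or at 6 h, as in all 62225 regions tested (0% higher and 0% lower at each time). At an unadjusted p under 0.05 there were 9.93% at 2 h and 8.37% at 6 h, against 9.36% and 8.11% of all, and edgeR called 3 at 2 h. With the replicate block 33 rose and 52 fell at 2 h (0.817% and 1.29%, against 1.32% and 1.06%), and 33 rose and 21 fell at 6 h (0.817% and 0.520%, against 1.09% and 0.730%). The lone vehicle library and the low share of replicate 1 tags in regions limit these tests.

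p300 and H3K27ac changed in the same direction at most LTR regions called for H3K27ac. Of the 88 LTR regions where H3K27ac rose at 2 h, 87 were tested for p300 and 86 lay above 0 (median log2 change 2.48). Of the 56 that fell, 52 were tested and 50 lay below 0 (median -1.63). Over the 3869 LTR regions tested for both, 2009 lay above 0. With the block 29 of the 33 LTR regions where p300 rose were among those where H3K27ac rose, and 39 of the 52 where it fell among those where H3K27ac fell. The 2 marks came from separate libraries. These counts were made in LTR regions only, without the share over all regions, so they do not set LTR regions apart from other open chromatin.

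With the block, the copy near Cdc42ep2 led the p300 rises at 2 h, with 0 normalised tags with PBS and 183 and 137 with LPS, at least 25.2-fold higher (adjusted p = 0.00865), and 190 and 110 with both agents. An RMER15 copy at -8675 bp from the start of Aebp2, a gene of a Polycomb cofactor (chr6:140613889-140614088, with AP-1 letters), held 0 and then 91.4 and 86.8, at least 14.1-fold higher (adjusted p = 0.0141). At 6 h it held 20.1 and 8.77 with LPS and 0 with PBS. A MER21C copy near Fndc3a held 0 and then 88.6 and 79.5, at least 13.3-fold higher (adjusted p = 0.0179), and its H3K27ac rose from 20.3 and 8.22 to 198 and 118. An RLTR13D2 copy near Bcl2l15 held 0 and then 65.1 and 63.3, at least 10.1-fold higher (adjusted p = 0.0245), but 19.2 in the 6 h PBS library.

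Falls of p300 at 2 h rested on single vehicle values. An ORR1D2 copy near Eps8, with 2 copies of PU.1 letters, held 38.0 with PBS and 0 and 0 with LPS, at least 8.88-fold lower (limma with block, adjusted p = 0.0131), and 54.4 in the 6 h PBS library. An ORR1G copy near Slc46a2 held 42.3 and then 0 and 0, at least 9.86-fold lower (adjusted p = 0.00423), but 8.53 in PBS at 6 h. An ORR1F copy in intron 7 of 12 of Pdlim5 held 21.1 and then 0 and 0, at least 4.93-fold lower (adjusted p = 0.0207), but 1.07 in PBS at 6 h. At the Eps8 and Slc46a2 copies both vehicle libraries lay above all 4 LPS libraries of either time, and at the Pdlim5 copy the 6 h vehicle library did not.

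At 6 h an RMER13B copy, 487716 bp from the start of 1700012I11Rik, held 1.07 normalised p300 tags with PBS and 304 ± 122 with LPS (SD, n = 2, log2 change 6.14, limma with block, adjusted p = 0.0159). With both agents it held 470 and 64.8. Its H3K27ac differed between replicates, with 78.5 and 14.4 in PBS at 2 h and 328 and 111 with LPS, and this copy is most of the RMER13B sum.

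A further 3 copies had higher p300 at 6 h with the block. An ORR1C1 copy in Pfkfb3, a gene of glycolytic control, held 0 and then 55.8 and 66.4, at least 19.1-fold higher (adjusted p = 0.0405). An MTD copy in Cyfip1, a gene of actin regulation, held 0 and then 35.7 and 67.7, at least 16.2-fold higher (adjusted p = 0.0411), and an MLT1F copy near Ttc26 held 1.07 and then 73.6 and 60.2 (4.95, adjusted p = 0.044). The Cyfip1 copy also rose in H3K27ac at 2 h without the block, from 156 and 134 to 538 and 715 (2.09, limma adjusted p = 0.0127), as did the Ttc26 copy, from 10.2 and 18.5 to 110 and 111 (2.93, limma adjusted p = 0.021).

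Falls of p300 at 6 h with the block included an IAPLTR3-int copy near Slc22a27, with 82.1 with PBS and 0 and 6.27 with LPS (-3.86, adjusted p = 0.0186). Its H3K27ac at 6 h was 436 with PBS and 77.8 and 97.0 with LPS. The copy near Nrg2 fell from 29.9 to 2.23 and 2.51 (-3.60, adjusted p = 0.0442), and an MT2B1 copy near Ift88 from 16 to 0 and 0, at least 3.06-fold lower (adjusted p = 0.0491). At 6 h all LPS libraries lay below the lone vehicle library at these copies, as the choice of copies required.

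As sums, p300 changed in 0 LTR elements without the block at either time (0% of the 252). With the block 2 rose and 2 fell at 2 h, against 4.37% and 1.59%: RMER13B (3.38, with 83.0% of its tags in 1 region), RMER4B (1.21), RMER19C (-1.65, adjusted p = 0.00692) and RMER10A (-0.97). RMER19C held 925 tags with PBS and 499 and 288 with LPS, the element that also fell in H3K27ac with the block. At 6 h, 8 rose and 0 fell, against 6.75% and 0.794%. They were RMER13B (2.49), RMER6C (1.22), MTA_Mm (0.89), RMER15 (0.82), MTB (0.77), ORR1C2 (0.76), ORR1C1 (0.64) and MTC (0.47), with adjusted p from 0.0267 to 0.0479. Of the 108 tested RMER15 regions 77 lay above 0, and of 234 in MTC 148 did.

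3'SL gave no call at an LTR region. For H3K27ac and p300, at 2 h and 6 h, neither the contrast of 3'SL with PBS nor that of both agents with LPS alone had an LTR region past the threshold, in limma with or without the block, and 0% of all regions passed without the block. With the block, 0.00161% of all p300 regions passed at 6 h between 3'SL and PBS, and 0.00321% between both agents and LPS alone, none of them in an LTR. At an unadjusted p under 0.05 there were 0.459% to 2.28% of LTR regions over the 8 comparisons, or 2.56% to 6.04% with the block. Element sums gave 0 LTR calls too, while 0.397% of all elements passed for p300 with 3'SL against PBS at 6 h with the block.

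At the 7 LTR regions named above for the largest H3K27ac rises with LPS, the values with both agents are given beside those with LPS alone at 6 h. At 3 of them, near Cdc42ep2, Il1f10 and Saa4, both libraries with both agents lay below both LPS libraries, for example 54.5 and 78.7 against 98.5 and 163 at Il1f10. At the other 4, near 4930529L06Rik, Dnm1l, Zfp811 and Ms4a6d, the groups overlapped, with 292 and 93.2 against 353 and 231 at 4930529L06Rik. These copies were chosen for high LPS values, and the same LPS libraries enter both comparisons, so no test is given. How many of all regions were separated in this way was not counted, so the 3 of 7 is no result about 3'SL.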

How the data were processed

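H3K27ac and p300 ChIP-seq of BMDM were analysed in 34 deposited columns of 2 tables. Per the file headers, the deposited signal was made with HOMER annotatePeaks.pl on mm10, as tags in 1000 bp (H3K27ac) or 200 bp (p300) around each merged ATAC peak, which the authors put on a scale of 10000000 tags for each library. Bowtie2, HOMER, DESeq2 and mm10 are named in the submitters' processing notes; their versions and the treatment of reads that match several copies of a repeat were not given in the sources used here. The ATAC score is the authors' deposited score, of undefined scale, used only to rank regions. Peak lists hold positions, and an overlap was at least 1 bp. Multiplied back by the library total, 100% of values were whole tags (tolerance 0.05), so tags were recovered. There were 5 value columns that matched no sample, which were not used.

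The members, gene lists and tests were chosen with earlier results of these data known. Regions were filtered with edgeR's filterByExpr, rescaled with TMM, and tested as log2(value + 1) with limma 3.58.1 and edgeR 4.0.16 in R 4.3.3, in 1 group-means model per mark over all regions, two-sided, Benjamini-Hochberg adjusted, threshold 0.05. Precision weights from the mean and variance of tags were added to the planned fit after simulated data gave 62.2% false calls for p300 at 2 h without them and 0% with them (49661 regions). With weights, 63% of 4-fold rises and 37% of 4-fold falls were recovered there, and for H3K27ac at 2 h (73067 regions) 95% and 79%, with 5.95% false. The simulation used a fixed spread with no shared replicate effect, and placed changes only in regions with many tags. These rates therefore need not hold for the real libraries or for regions with few tags. Fold changes on this scale understate changes of low regions. Floors are 3 tags per library and cover counting error only. The SE values rest on the spread between libraries, with at most 2 a group.

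Replicate numbers paired the libraries: deviations of same-numbered libraries from their group means correlated at 0.445 to 0.670 over 21 pairs of groups for H3K27ac and 0.192 to 0.377 over 15 for p300, so results with the replicate as a block are given where they change a call. Replicates differed by more than counting noise (chi-square per degree of freedom 8.34 to 28.3). Nothing states whether they were separate animals or cultures, so p-values measure the spread between these libraries, which may be technical. Titles gave the groups; the treatment label of 3 replicate 1 H3K27ac libraries whose titles say 2 h reads 1 h, and that of 1 replicate 2 library of both reads vehicle.

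Named regions are, per mark and time, the 4 largest rises and 3 largest falls with LPS among called LTR regions whose groups did not overlap, from the fit with the block where the other had 0 calls, the highest levels and inputs per family, and up to 3 called per gene list. Named elements are the 10 with most regions and the 4 largest called changes each way. Further elements (MTE2a, RMER19A, RMER19B and those named for their letters) were chosen after their values were seen, and 6 regions by ATAC score and letters. Alternatives were the authors' scaling, DESeq2's median-of-ratios scaling, no filter, a pseudocount of 4, edgeR, the block, no weights and leaving out each library.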

Additional observations from a re-analysis of the deposited data

Results flagged for a closer look

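At the MTC copy in Ascc3, shown for its PU.1 letters, p300 with LPS moved one way at 2 h and the other at 6 h. The log2 change was 0.36 at 2 h, with 18 and 20.6 normalised tags against 14.8 with PBS, and -1.30 at 6 h, with 35.7 and 7.52 against 36.3. Both LPS libraries lay above vehicle at 2 h and below it at 6 h, but replicate 1 at 6 h nearly equalled vehicle, and each time had 1 vehicle library. The difference between the times was not tested.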

How the results depend on the processing

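Of the LTR regions called for H3K27ac at 2 h of LPS (144), the replicate block gave 1087, edgeR with the replicate block 1104 and limma without precision weights 221, and leaving out 1 library gave 0 to 23. For H3K27ac at 6 h (0) the replicate block gave 335, edgeR 3, edgeR with the block 453 and no weights 36. For p300 at 2 h (0) the values were 85 with the replicate block, 27 without the filter, 3 by edgeR, 164 by edgeR with the block and 86 without weights, and at 6 h (0) 54, 121 by edgeR with the block and 14 without weights. 3'SL against PBS for p300 at 2 h (0) gave 1 without weights. LTR elements for H3K27ac at 2 h (2) became 1 on the authors' scaling, 33 with the replicate block, 32 by edgeR with it and 4 without weights, and 0 to 2 without 1 library. At 6 h (0) they became 2 with the replicate block and 2 by edgeR with it, and for p300 (0) 4 and 11 at 2 h and 8 and 5 at 6 h. A fold of 4 over input gave 1835 regions in place of 2761 for H3K27ac and 2212 in place of 3875 for p300. The cause of these differences was not tested. Of 34 values of single regions, 24 were named because they passed with the replicate block, so their passing with it was fixed by the choice. Past the threshold, edgeR with the block took 23, no weights 14, no filter 6 and edgeR 3. A pseudocount of 4 ended 4 calls, the authors' scaling 3 and median-of-ratios scaling 2, and 0 values changed direction. Of the 10 called for H3K27ac at 2 h, dropping either LPS library ended 8, dropping the first PBS library 9 and dropping the second 10. The split of H3K27ac calls at 2 h, 88 higher and 56 lower, was 67 and 35 on the authors' scaling and 81 and 62 with median-of-ratios scaling. The authors' scaling moved the median p300 change over all regions from 0.11 to -0.73 at 2 h and from -0.04 to -0.99 at 6 h, so p300 directions hold for the TMM scale. Depth (3199270 tags in the p300 vehicle library at 2 h) and the lone vehicle libraries limit p300 and the 6 h results.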
